A study of Mus musculus with 8 samples.

Results

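Small nucleolar RNA (snoRNA) host genes are genes whose introns carry snoRNAs, and 10 of them were followed here by their names in the deposited gene tables: Snhg1, Snhg3, Snhg5, Snhg6, Snhg8, Snhg11, Snhg12, Snhg17, Snhg20 and Gas5. They are 10 of the 51826 genes listed for each library. They were chosen by their total and unique exon reads and their intron reads in the genotype comparison itself, so their levels and differences between genotypes are given as a description. No p is given for a member, and where it is counted how many members passed a test fitted over all genes, nothing is read from that count.

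The samples were red fluorescent cells sorted from the hypothalamus of C57BL/6 mouse fetuses at embryonic day 14.5. All fetuses carried 1 Ai9 reporter allele, which Cre recombinase switches on, and at least 1 Ptf1a-cre allele, so the sorted cells came from the lineage in which Ptf1a-cre had been active. Libraries 1, 2, 3 and 4 were Ptf1a cre/+; Ai9/+ (heterozygous here), and libraries 9, 10, 11 and 12 were Ptf1a cre/cre; Ai9/+ (homozygous here). No library without Ptf1a-cre was included, and nothing states that the libraries of a genotype are separate fetuses, so any p-value measures the spread between libraries, which may be partly technical.

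Libraries 1, 2 and 9 stood apart from the other 5. Intron reads were 59.6% to 63.9% of their gene reads, against 67.7% to 70.9% in the other 5, which are 2 heterozygous and 3 homozygous libraries. Values in those 5 libraries alone are given beside the results below.

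A snoRNA host is transcribed as one precursor and spliced. The exons are joined into a host RNA, and the excised introns are trimmed down to the snoRNAs, which guide the chemical modification of ribosomal and spliceosomal RNA. C/D box snoRNAs guide ribose methylation and H/ACA box snoRNAs guide pseudouridine formation. In the Snhg genes and Gas5 the spliced host RNA mostly codes for no protein and is often removed by nonsense-mediated decay, so the level of a host RNA and the level of its snoRNAs can differ widely.

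The tables listed 35 snoRNA or scaRNA (Cajal body RNA) rows inside the 10 members on the same strand, 10 of them in Gas5, 8 in Snhg1 and 1 each in Snhg6, Snhg8 and Snhg20. The guest sequences below are from GENCODE vM21 transcripts (GRCm38) and are shown because they are the small RNAs that these hosts carry. Capitals mark TGATGA (the C box) within the first 20 bases, CTGA (the D box) within the last 20 bases and, where that pair was not found, ACA within the last 8 bases (the ACA box). Snord47 lies in Gas5 (chr1:161038082-161038158, plus strand), Gm25855 and Snord22 in Snhg1 (chr19:8723993-8724064 and chr19:8725866-8725991, plus), Snord99 in Snhg12 (chr4:132310691-132310764, plus), the scaRNA Gm26083 in Snhg20 (chr11:117077243-117077435, plus), Snord87 in Snhg6 (chr1:9942463-9942549, minus) and Snora24 in Snhg8 (chr3:123507937-123508066, minus).
Snord47: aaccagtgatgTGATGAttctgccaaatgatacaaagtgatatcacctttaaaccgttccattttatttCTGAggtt
Gm25855: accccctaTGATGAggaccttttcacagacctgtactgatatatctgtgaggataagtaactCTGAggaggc
Snord22: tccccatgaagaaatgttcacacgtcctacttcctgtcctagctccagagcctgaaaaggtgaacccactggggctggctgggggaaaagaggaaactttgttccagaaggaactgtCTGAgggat
Snord99: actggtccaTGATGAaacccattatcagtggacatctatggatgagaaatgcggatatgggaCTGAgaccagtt
Gm26083: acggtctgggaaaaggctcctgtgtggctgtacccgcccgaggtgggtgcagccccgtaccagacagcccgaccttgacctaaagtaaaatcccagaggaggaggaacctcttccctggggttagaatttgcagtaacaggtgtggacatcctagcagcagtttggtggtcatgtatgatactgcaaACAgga
Snord87: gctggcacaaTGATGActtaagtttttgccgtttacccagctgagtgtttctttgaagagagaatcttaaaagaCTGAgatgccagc
Snora24: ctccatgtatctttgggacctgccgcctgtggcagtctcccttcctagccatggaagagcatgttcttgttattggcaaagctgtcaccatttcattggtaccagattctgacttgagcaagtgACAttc

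The letters were searched on the transcript strand only. Of the 35 guest rows, 17 held the TGATGA and CTGA pair and 12 held ACA without that pair. Over all 1558 snoRNA and scaRNA transcripts of GENCODE vM21, 20.2% held the pair and 46.7% held ACA without it.

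None of the 35 guest rows had a read in any of the 8 libraries. The same held for all 688 snoRNA and scaRNA rows that lie inside another gene on the same strand and for the 215 that lie inside a gene on the other strand only. Of the 656 such rows that lie inside no other gene, 311 had at least 1 read, with 21962 reads over the 8 libraries. So a guest's own row gave no measure of the guest. Whether reads of a guest were counted to its host or left out is not given in the sources used here. For 29 of the 35 guests no stretch of 36 bases, the read length, occurred in a transcript annotated elsewhere.

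If a guest's reads were counted to the host, the annotation would set whether they fell in its exon or intron column. Of the 35 guests, 31 lay wholly inside a stretch that GENCODE vM21 also annotates as exon of the host. Snhg1 is the clearest case, since its exon length of 2969 bases in the tables equals its gene length, so intron reads of Snhg1 cannot be told apart from exon reads. Gas5 was listed with 3760 exon bases of 4118. Snord87 in Snhg6 lay outside any annotated exon, and the tables gave Snhg6 1146 exon bases of 2160. For Snhg8, Snhg12, Snhg17 and Snhg20 the exon lengths in the tables were shorter than the GENCODE vM21 exons, with 604 of 853 gene bases in exons for Snhg8.

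Each table also splits the reads of a gene into total and unique reads. The difference is called non-unique here, and what made a read non-unique is not given in the sources used here. Among the 9 members with at least 100 exon reads, the median non-unique share of exon reads was 56.6%. It was 0.746% among 214 other genes that hold a snoRNA row and are no ribosomal protein genes, and 0% among 11319 genes that hold none. Shares in the members ran from 90.7% in Snhg3 and 85.0% in Snhg1 through 61.7% in Gas5 down to 0.212% in Snhg11 and 0% in Snhg6. Ribosomal protein genes, which have many processed pseudogenes, had high shares with a snoRNA row (78.5%, 30 genes) and without one (56.8%, 69 genes).

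Levels per length were compared as the authors' RPKM, which rests on total exon reads. In heterozygous libraries Snhg1 was the highest at 112 ± 32.6 RPKM (SD, n = 4), followed by Gas5 (33.2 ± 10.2), Snhg20 (33.0 ± 7.47) and Snhg12 (26.7 ± 8.76). The last 3 neighbours in this order differed by less than their spread. The other 6 lay between 1.67 ± 0.171 (Snhg6) and 6.35 ± 1.62 RPKM (Snhg5).

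**Figure D1:**
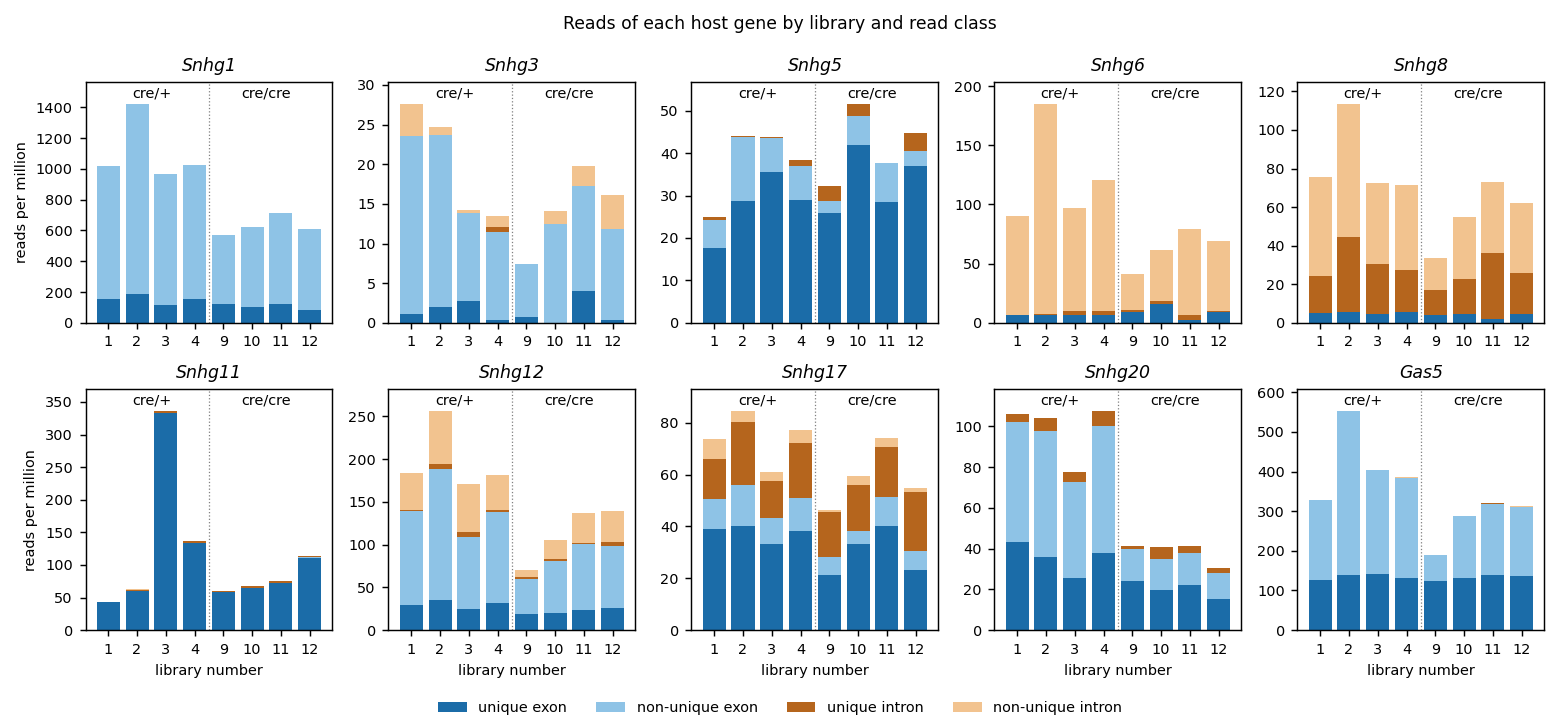
Reads of each of the 10 host genes in the 8 libraries, in CPM (counts scaled to the TMM-adjusted exon library size), stacked by read class (unique and non-unique exon, unique and non-unique intron), with the heterozygous libraries left of the dotted line. In the heterozygous libraries most of the height of Snhg1, Snhg6, Snhg12 and Gas5 is non-unique reads, while the unique exon reads of Gas5 stay between 123 and 142 in every library.

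Together the members took 0.169% to 0.247% of the exon reads in the heterozygous libraries and 0.0941% to 0.131% in the homozygous ones. The question the comparison answers is which transcripts differ in these cells when both Ptf1a copies carry cre. On total exon reads, 8 of the 10 members had a lower mean in homozygous libraries and 2 (Snhg5 and Snhg6) a higher one, and the median log2 difference was -0.58, beside 0.04 over all genes tested. Of the 10, 4 passed an adjusted p of 0.05 as lower (Gas5, Snhg1, Snhg12 and Snhg20, edgeR quasi-likelihood, Benjamini-Hochberg over 12257 genes) and none as higher, beside 6.12% of all genes lower and 6.96% higher. Since this contrast chose the members, nothing is read from that count.

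Snhg20, which holds 1 scaRNA, had the largest fall of the group on total exon reads. Levels are given as CPM, counts scaled to the TMM-adjusted exon library size. Its total exon reads were 102, 97.9, 72.8 and 100 CPM in the heterozygous libraries and 39.6, 34.7, 37.8 and 28.3 in the homozygous ones. All homozygous libraries lay below all heterozygous ones, and the mean was 93.3 ± 13.8 against 35.1 ± 4.99 (SD, n = 4), a log2 difference of -1.41 (SE 0.17). Non-unique exon reads fell from 57.7 ± 7.04 to 14.8 ± 1.26 CPM and unique exon reads from 35.6 ± 7.51 to 20.3 ± 3.80. Neither kind overlapped between the genotypes, and Snhg20 was the 1 member of which this held for unique exon reads. Reads across exon-exon junctions numbered 3 in its heterozygous and 0 in its homozygous libraries (0.487% of its unique exon reads). These were too few to measure spliced Snhg20 RNA.

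Snhg1, host of the C/D box snoRNAs that include Snord22, was the most abundant member. Its total exon reads were 1018, 1423, 969 and 1023 CPM in heterozygous and 569, 625, 712 and 607 in homozygous libraries, again without overlap. The log2 difference was -0.82 (SE 0.14). Non-unique reads made up 90.4% of the difference between the group means. The unique exon reads were 154 ± 28.2 and 107 ± 15.6 CPM and overlapped by the lowest heterozygous library, library 3 at 118.

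Gas5, named for its rise in growth-arrested cells and degraded when translated, differed by read class. Its total exon reads were 329, 552, 403 and 384 CPM in heterozygous and 189, 287, 319 and 311 in homozygous libraries, a log2 difference of -0.59 (SE 0.18). The groups did not overlap, although library 1 of the heterozygous group lay close to the highest homozygous library. Its unique exon reads were 127, 139, 142 and 131 CPM against 123, 132, 139 and 137. The groups covered almost the same range, with a log2 difference of -0.04 (SE 0.12). Reads across exon-exon junctions, which come from spliced RNA, were 73.3 ± 8.51 against 79.3 ± 3.37 CPM, a log2 difference of 0.16 (SE 0.15). The non-unique exon reads were 202, 413, 262 and 252 CPM against 66.7, 154, 179 and 174. These did not overlap, and they carried 98.9% of the difference in the reads of the whole gene.

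Snhg12, which holds H/ACA box guests (Snora16a, Snora44, Snora61) and Snord99, gave 139, 188, 109 and 138 total exon CPM in heterozygous libraries and 60.0, 81.1, 101 and 98.1 in homozygous ones. The groups did not overlap, and the log2 difference was -0.76 (SE 0.19). Non-unique reads were 88.4% of the difference over the whole gene. Unique exon reads, at 30.4 ± 4.63 and 22.0 ± 3.16 CPM, overlapped. Its total intron reads were 44.8, 67.8, 61.7 and 43.6 CPM against 10.2, 24.6, 36.7 and 41.2, without overlap.

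Snhg6 had few exon reads and many intron reads. Its exon reads, all of them unique, were 6.35, 6.35, 6.55 and 6.57 CPM in heterozygous and 8.77, 15.7, 2.57 and 9.03 in homozygous libraries. The homozygous libraries lay on both sides of the heterozygous ones, and the counts were low, at 7 to 39 reads a library. The intron reads were 84.0, 179, 90.2 and 114 CPM against 32.3, 45.6, 76.6 and 59.7. All homozygous libraries were below all heterozygous ones, and nearly all of these reads were non-unique, at 115 ± 43.7 CPM against 51.0 ± 18.5. The intron of Snhg6 holds Snord87, and 93.0% to 96.6% of the gene's reads in heterozygous libraries were intron reads, against 74.3% to 96.8% in homozygous libraries.

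Snhg8, host of Snora24, had the same make-up, with 92.2% to 95.0% intron reads in heterozygous libraries. The non-unique intron reads were 51.5, 69.2, 42.0 and 43.9 CPM in heterozygous and 16.5, 32.3, 36.7 and 36.1 in homozygous libraries, without overlap. Its unique intron reads overlapped, at 26.4 ± 8.62 against 21.7 ± 9.16 CPM, and its exon reads were few, at 5.17 ± 0.513 against 3.80 ± 1.33.

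Snhg3, Snhg5 and Snhg17 overlapped between the genotypes on total exon reads. Snhg17 gave 50.2 ± 5.34 and 37.1 ± 10.4 total exon CPM, and its few non-unique intron reads gave 5.12 ± 1.90 and 2.20 ± 1.28 CPM without overlap. Snhg3, host of Snora73a and Snora73b, gave 18.1 ± 6.42 and 12.2 ± 4.04 total exon CPM, a log2 difference of -0.57 (SE 0.34), close in size to that of Gas5. Snhg5, host of Snord50a and Snord50b, gave 37.2 ± 9.14 and 38.9 ± 8.27. Its non-unique exon reads were at 9.45 ± 3.77 against 5.59 ± 2.96 CPM and its junction reads at 5.04 ± 2.11 against 8.65 ± 3.05, both overlapping.

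Snhg11, a neuronal transcript that the tables class as protein coding, stood apart from the other members. Its total exon reads were 43.3, 60.5, 333 and 133 CPM in heterozygous and 58.2, 65.0, 72.2 and 112 in homozygous libraries. Library 3 lay far above all others, and the log2 difference of -0.89 (SE 0.47) became -0.09 (SE 0.30) without it. Almost none of its reads were non-unique, and non-unique reads made no part of its difference.

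In the 5 libraries that had over 66% intron reads, the log2 ratio of the group means on total exon reads was -1.37 for Snhg20, -0.62 for Snhg1, -0.40 for Snhg12 and -0.37 for Gas5. The groups did not overlap in these 4, but groups that lie apart in all 8 libraries must lie apart in any part of them. The intron reads of Snhg6 gave -0.75, without overlap for the same reason, and those of Snhg8 gave -0.16 with overlap. Unique exon reads of Gas5 gave 0.00 in these libraries and its non-unique exon reads -0.60. Snhg3 turned the other way, with 0.13 on total exon reads and 0.15 on non-unique exon reads. By edgeR on these 5 libraries Gas5, Snhg1, Snhg11 and Snhg20 passed as lower, beside 2.75% of all genes, and nothing is read from these calls. The homozygous group was missing its lowest Gas5, Snhg12 and Snhg6 intron value there, that of library 9.

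With each library left out in turn, Snhg1 and Snhg20 passed as lower in all 8 fits. Since this contrast chose the members, nothing is read from these calls, which only show how they depend on single libraries. Gas5 passed only without heterozygous library 1 or 3, and Snhg12 passed except without heterozygous library 2 or homozygous library 10. The share of all genes lower was 3.25%, 2.46%, 8.77% and 5.17% without heterozygous libraries 1, 2, 3 and 4 and 6.29%, 3.16%, 2.96% and 2.9% without homozygous libraries 9, 10, 11 and 12.

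Counted by read class over members with at least 20 reads, 4 of 7 did not overlap and were lower in homozygous libraries on non-unique exon reads (8.18% of all genes tested), 1 of 10 on unique exon reads (9.48%), 4 of 10 on total exon reads (9.34%), 2 of 8 on intron reads (1.02%) and 4 of 5 on non-unique intron reads (3.3%). None was higher without overlap in any of these classes, beside 10.3%, 10.3%, 8.01%, 6.85% and 7.58% of all genes on total exon, unique exon, non-unique exon, intron and non-unique intron reads. These shares are over genes that passed the default low-count filter of edgeR, a floor unlike that of 20 reads used for the members. Of the members, 9 passed that filter on unique exon reads, 5 on intron reads and 3 on non-unique intron reads. The genotype contrast on exon and intron reads chose the members, so these shares are printed beside the counts and nothing is read from them. By the same edgeR test 2 of 9 members passed as lower on unique exon reads (Snhg1 and Snhg20), beside 7.52% of all genes lower and 6.7% higher. On non-unique exon reads 3 of 7 did (Snhg1, Snhg12 and Snhg20; 3.11% lower, 2.84% higher), and on intron reads 2 of 5 (Snhg6 and Snhg12; 0.535% lower, 0.0294% higher). None of 4 passed on exon-exon reads (4.05% lower, 6.96% higher) and none of 10 on whole-gene reads (0.0307% lower). With a correction for GC content the 4 members called on total exon reads passed (0.932% lower, 1.76% higher). No member passed as higher in any of these, and nothing is read from these counts either.

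**Figure D2:**
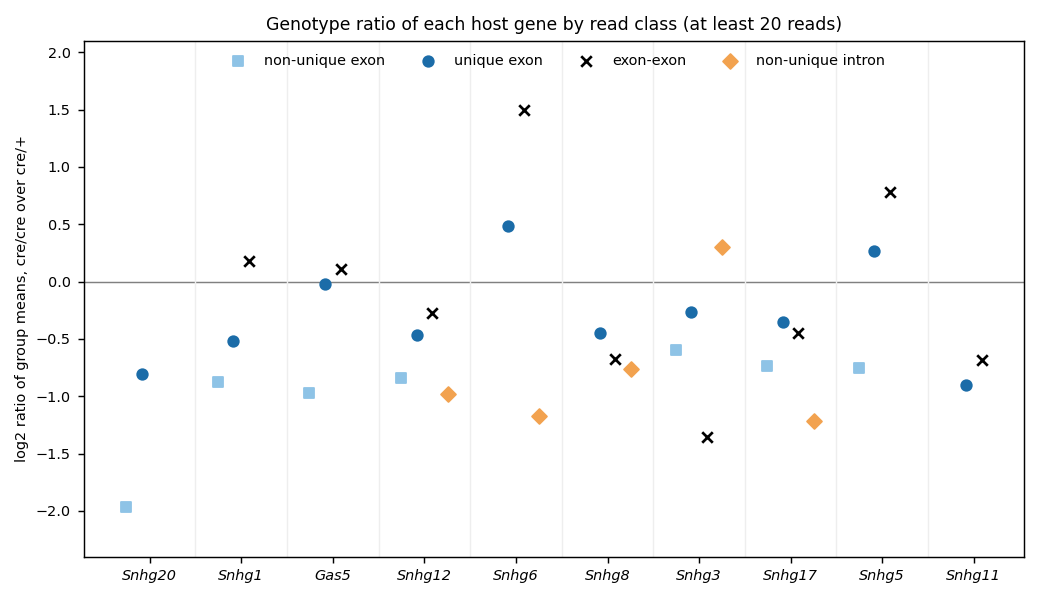
Log2 ratio of the homozygous (cre/cre) to the heterozygous (cre/+) mean for each host gene, by read class, shown where the class had at least 20 reads over the 8 libraries. Non-unique exon reads are below 0 in all 7 genes plotted, from -1.97 in Snhg20 to -0.60 in Snhg3, while exon-exon reads lie on both sides of 0.

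The share of non-unique reads in all reads of a gene followed the same lines. In Snhg20 it was 55.6% to 60.9% in heterozygous and 36.6% to 42.3% in homozygous libraries. In Gas5 it was 61.5% to 74.9% against 35.2% to 56.0%, and in Snhg17 22.2% to 26.8% against 14.3% to 19.3%. These 3 did not overlap, while the share in Snhg1 (84.7% to 87.8% against 79.1% to 85.9%) and in the other 6 members did. Over the 7128 genes with at least 100 gene reads and 20 non-unique reads, which include 9 members, 3.93% were lower without overlap and 3.13% higher, and nothing is read from the members' count. A share within a gene does not depend on how libraries are scaled to each other.

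**Figure D3:**
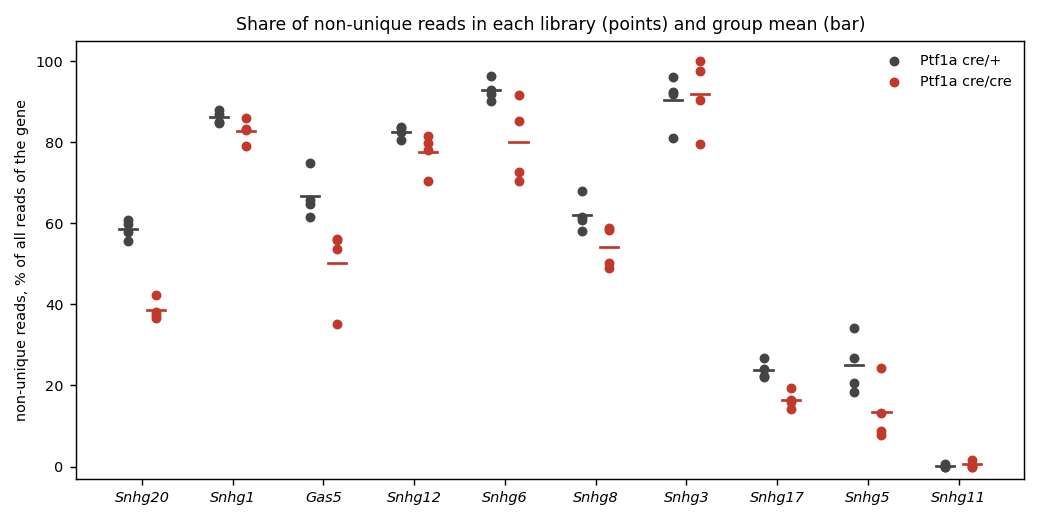
Non-unique reads as a percentage of all reads of each host gene, 1 point per library, with the group mean as a bar. The homozygous points lie below all heterozygous ones in Snhg20, Gas5 and Snhg17 and overlap with them in the other 7 genes.

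Exon and intron reads of the same library were also set against each other in 1 model for the 5 members with enough of both. The change in exon reads minus that in intron reads was 2.05 on the log2 scale (SE 0.55) for Snhg6, 0.82 (SE 0.26) for Snhg12, 0.69 (SE 0.49) for Snhg8, 0.18 (SE 0.37) for Snhg17 and -0.20 (SE 0.42) for Snhg20. Over all genes, 1.65% of 10535 passed as higher and 0.323% as lower in this contrast. The sizes depend on the scale of the introns. The intron reads of the median gene were higher by 0.81 (log2) in homozygous libraries on the exon scale. With introns scaled to themselves that median was 0.02, and the intron difference of Snhg6 was -2.15 (SE 0.41) in place of -1.12 on the exon scale, that of Snhg12 -2.01 (SE 0.39) in place of -0.95 and that of Snhg8 -1.64 (SE 0.38) in place of -0.58.

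The start sites of the members were inspected because many snoRNA hosts and ribosomal protein genes are known to begin with a run of pyrimidines, which places their translation under control of growth signals. RefSeq (GRCm38.p6) gave 11 start windows for 9 members, and Snhg6 had no entry. Runs of C or T were measured only up to 10 bases from the start and cut off there. A run of at least 8 bases inside that span was found in 1 of the 11, that of Snhg12, and in 7.89% of all 32851 windows. The run of Snhg1 was counted as 7 bases but goes on past the span, and its full length reaches the minimum of 8. The median longest run was 5 bases in the members and 4 overall. Below are 50 bases around the start site of 3 members on the transcript strand, for Snhg12 (chr4:132308658-132308707), Snhg1 (chr19:8723467-8723516) and Gas5 (chr1:161035146-161035195, 1 of its 2 start sites). Capitals mark the longest run as measured inside the span of 10 bases from the start.
Snhg12: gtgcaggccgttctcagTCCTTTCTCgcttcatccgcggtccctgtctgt
Snhg1: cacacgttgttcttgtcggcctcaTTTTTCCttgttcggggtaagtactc
Gas5: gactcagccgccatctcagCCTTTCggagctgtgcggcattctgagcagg

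Other snoRNA hosts were examined as lists. Of 12 other non-coding hosts 9 were in the tables and 5 could be tested on total exon reads. Of these, 2 fell and none rose, beside 6.12% and 6.96% of all genes. The median log2 difference was -0.68 beside 0.04 over all genes. Snhg4 fell from 109 ± 21.7 to 57.8 ± 9.42 CPM (SD, n = 4; adjusted p = 0.0043) and Snhg15 from 23.1 ± 2.94 to 9.69 ± 4.01 (adjusted p = 0.019, edgeR quasi-likelihood as for the tests that follow). Neither gene's libraries overlapped between genotypes. Leaving out heterozygous library 2 or homozygous library 11 ended the call of Snhg15, at adjusted p = 0.069 and 0.060, as did the GC correction (0.11) and the 5 libraries with over 66% intron reads (0.11). Most of their reads were non-unique, and the unique exon reads of Snhg4 did not pass (log2 difference -0.43, adjusted p = 0.70). Zfas1, host of C/D box snoRNAs, gave 107 ± 37.7 against 67.2 ± 22.7 CPM in total (adjusted p = 0.11) and a log2 difference of 0.03 in unique exon reads (adjusted p = 0.97). Snhg4 had no value with the GC correction. Of the 4 hosts tested with it, 1 fell and none rose, beside 0.932% and 1.76% of all genes. That was Snhg14 (log2 difference -0.85, adjusted p = 0.0039), which did not pass on total exon reads (-0.12, adjusted p = 0.70).

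Rian, an imprinted transcript that carries tandem C/D box snoRNAs, gave 896 ± 71.2 and 991 ± 26.2 total exon CPM. All homozygous libraries lay above all heterozygous ones, also on unique exon reads, and the difference did not pass (adjusted p = 0.41). Its non-unique exon reads were 39.2, 78.2, 43.2 and 51.5 CPM in heterozygous and 11.6, 27.9, 36.7 and 22.4 in homozygous libraries. The groups did not overlap, and the log2 difference was -1.12 (adjusted p = 0.046). On non-unique exon reads 3 of the 5 hosts tested fell and none rose, with a median of -0.95 beside 0.01 over all 2995 genes tested. Of those genes 3.11% fell and 2.84% rose.

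Of 20 tested protein-coding hosts that are no ribosomal protein genes, 7 rose and 2 fell (median 0.17), beside 6.96% and 6.12% of all genes. On unique exon reads 4 of the 20 rose and 3 fell (median 0.12), beside 6.7% and 7.52% of all genes. With the GC correction 2 rose and 1 fell (median -0.03), beside 1.76% and 0.932% of all genes. Nop58, which encodes a core protein of C/D box particles, rose from 54.4 ± 12.2 to 118 ± 5.53 CPM (log2 difference 1.12, adjusted p = 0.0015). Ncl, encoding the nucleolar protein nucleolin, rose from 388 ± 104 to 875 ± 126 (log2 difference 1.18, adjusted p = 0.0017). In log2 units Wdr43, a ribosome assembly factor, rose by 0.72 (adjusted p = 0.014), and Tnpo2, a nuclear import receptor, fell by 0.76 (adjusted p = 0.0055). The last 2 calls were lost with a correction for GC content, at adjusted p = 0.14 and 0.077, and that of Wdr43 also in the 5 libraries with over 66% intron reads (0.18). Intron reads of all 19 hosts of this list that could be tested had a negative log2 difference on the intron scale (median -1.19), with 1 called. Over all genes the median was 0.02 and 0.535% were called lower. A wider set, added after seeing the data, held all genes with a snoRNA row on their strand, members left out. Of its protein-coding genes other than ribosomal protein genes, 170 of 230 were negative (median -0.41). Its ribosomal protein genes had 22 of 22 (-1.57), and its genes that are not protein coding had 17 of 40 (0.88). Negative intron differences were not particular to hosts. Regulators of pyrimidine-start mRNAs had 10 of 11 (median -0.55), proteins that build snoRNA particles 9 of 15 (-0.33), and endothelial and pericyte markers 1 of 5 (1.43). The list of proteins that build snoRNA particles shares Nop56, Nop58 and Dkc1 with the list of coding hosts.

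Of 21 ribosomal protein hosts, 8 fell and none rose on total exon reads, with a median of -0.32, beside 6.12% and 6.96% of all genes. On the log2 scale Rps3 fell by 0.73 (adjusted p = 0.0038), Rpl12 by 0.65 (adjusted p = 0.0042), Rpl10 by 1.13 (adjusted p = 0.0047) and Rps20 by 0.73 (adjusted p = 0.0052). Unique exon reads gave 7 falls of 20 tested, beside 7.52% of all genes, and Rpl10 did not pass on them (log2 difference -0.47, adjusted p = 0.32). On exon-exon reads Rps3 did not pass (log2 difference -0.16, adjusted p = 0.57), and on non-unique exon reads Rps20 did not (-0.68, adjusted p = 0.078). Reads of ribosomal protein genes and their pseudogenes cannot be fully told apart.

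The proteins that build snoRNA particles gave 1 call of 17 tested, beside 6.96% of all genes called higher and 6.12% lower. This was Nop58, already counted among the coding hosts. Fbl, the methyltransferase of C/D box particles, gave 50.8 ± 7.15 and 34.6 ± 7.04 CPM (adjusted p = 0.071), and Dkc1, the pseudouridine synthase of H/ACA particles, gave 19.2 ± 9.12 and 36.8 ± 12.2 (adjusted p = 0.10). Of 15 nonsense-mediated decay genes 2 rose and none fell, beside 6.96% and 6.12% of all genes. On unique exon reads 2 rose and 1 fell, Eif4a3 (log2 difference -0.50, adjusted p = 0.033). Upf3b, which links exon junctions to decay, rose by 1.24 (adjusted p = 0.011), and Xrn1, an exonuclease, rose by 0.68 (adjusted p = 0.020). The call of Xrn1 was lost without heterozygous library 1 or 2 or homozygous library 11 or 12, at adjusted p = 0.054, 0.072, 0.060 and 0.075, with the GC correction, at 0.32, and in the 5 libraries with over 66% intron reads, at 0.12. Of 10 tested regulators of pyrimidine-start mRNAs 2 rose, beside 6.96% of all genes: Pabpc1 by 0.70 (adjusted p = 0.0033) and Cnbp by 0.44 (adjusted p = 0.025). With the GC correction both lost their call, at adjusted p = 0.077 and 0.56, and Cnbp also lost it without any 1 of 7 libraries, all but heterozygous library 2, at adjusted p = 0.052 to 0.081.

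Small RNA rows that lie inside no other gene were added after the members' values were seen. Among rows with at least 100 reads, all 16 of the misc_RNA class (7SL, 7SK and Y RNAs among them), 39 of 41 snRNA, 8 of 9 snoRNA and both scaRNA rows had a lower mean in homozygous libraries. Of the snRNA rows, Gm26316 and Gm25813 had their 3 highest values in libraries 1, 2 and 9, at 5351, 8033 and 3177 CPM for Gm26316 against 1.47 to 9.25 in the other 5, so their group means rest on those libraries. A further snRNA row, Gm24830, had 0 reads in libraries 3, 10 and 11 and 297 to 1535 CPM in the other 5, so its log2 ratio of -2.46 rests on single libraries too. Of all these rows, 11 misc_RNA, 19 snRNA, 4 snoRNA and 1 scaRNA did not overlap, and none was higher without overlap. On whole-gene reads 4.26% of all genes that passed the low-count filter of edgeR were lower and 10.2% higher without overlap. That filter is unlike the floor of 100 reads used for these rows. Rn7sk, the RNA of the 7SK particle, was 18753 ± 2299 CPM against 8978 ± 856. Scarna2 was 224 ± 33.5 against 91.8 ± 11.7, and Snord118, which guides processing of ribosomal RNA, was 164 ± 33.6 against 91.4 ± 31.8. The median log2 ratios were -0.89, -1.12, -0.84 and -1.09 for the 4 classes, while that of the reads of the 10 hosts was -0.70. On the same exon scale the median gene was at 0.59 on whole-gene reads. The 9 snoRNA rows include Snhg7, which is also in the list of other non-coding hosts. The part of these small RNA differences in the hosts' differences was not tested. In bulk samples fewer cells that hold an RNA and less RNA per cell cannot be told apart.

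**Figure D4:**
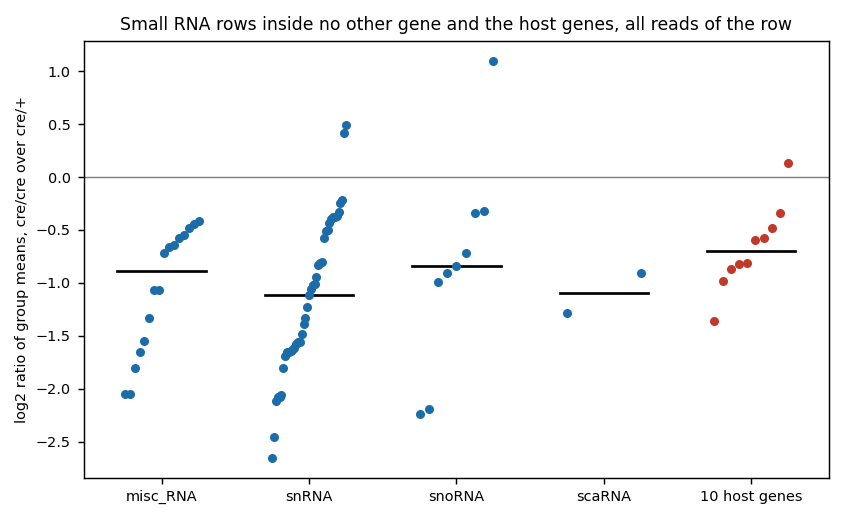
Log2 ratio of the homozygous (cre/cre) to the heterozygous (cre/+) mean for small RNA rows inside no other gene with at least 100 reads, by class, and for all reads of the 10 host genes, each point 1 row and each bar a median. Most rows of every class lie below 0, and the medians of the 4 small RNA classes run from -1.12 to -0.84.

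Among 4479 genes with a mean of at least 50 CPM, the pattern over the 8 libraries most like the mean of the members was that of Gm11808, with a root mean square difference of 0.432 between standardised log2 values. Gm17300 (0.433), Pbx2 (0.439), Brsk2 (0.443) and Zdhhc3 (0.443) came next. Of the members, Gas5 stood nearest at 0.446 and Snhg6 farthest at 1.12. Gm11808, 97.3% of whose reads were non-unique, was at 361 ± 47.4 CPM in heterozygous and 268 ± 24.4 in homozygous libraries, and Brsk2, a neuronal kinase with no non-unique reads, at 184 ± 6.24 and 131 ± 11.4. Gm17300, a non-coding RNA annotated opposite Snhg3 over Snora73a and Snora73b, was singled out after its values were seen. It had 104, 168, 113 and 110 total exon CPM in heterozygous and 20.3, 32.3, 31.2 and 38.9 in homozygous libraries, 99.6% of them non-unique, and a log2 difference of -2.01, given as a description since the likeness to the members chose it. Whether strand was used in counting is not given in the sources used here, so reads of Gm17300 and of Snhg3 cannot be told apart with certainty.

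The libraries held 2502387 to 2979647 total exon reads in the heterozygous and 2571054 to 3009181 in the homozygous group, and 4444597 to 6635550 intron reads, and the genes with an exon read numbered 14617 to 24852. Ptf1a itself had 1 exon read over all 8 libraries, which gives no check of the genotype labels. Neuronal markers were high in every library (summed level of 6 genes 5278 to 5656 CPM in heterozygous and 5582 to 6555 in homozygous libraries), with 3 of the 6 called higher and 1 lower in homozygous libraries. The 6 hypothalamic markers summed to 513 to 644 and 349 to 509, with 3 of the 6 called lower in homozygous libraries and none higher. With the GC correction none of the neuronal or hypothalamic markers passed. On unique exon reads 1 hypothalamic marker passed, as lower, and the neuronal markers again gave 3 higher and 1 lower. The 6 myeloid markers summed to 1.87 to 11.4 and 0.702 to 18.8, while 6 endothelial and pericyte markers reached 138 and 213 in single libraries of the 2 groups and 6 erythroid markers 104 and 84.8. Of 5 oligodendrocyte lineage and 6 astrocyte and radial glia markers 3 each could be tested and none passed, with sums of 21.1 to 32.9 and 7.72 to 47.9 for the first and 279 to 428 and 314 to 593 for the second. The part of cell make-up in the hosts' differences was not tested.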

How the data were processed

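RNA of sorted cells (10 ng) was made into stranded total RNA libraries (SMARTer Pico) and sequenced as paired reads of 36 bases, per the labels' protocols. The deposited tables hold whole-number read counts per gene, total and unique, over exons, introns, exon-exon junctions and the whole gene, per the file headers, and RPKM computed by the authors from total exon reads. Builds mm10 and GRCm38 are named in the submitters' processing notes; for the aligner, the counter and the use of strand no source used here has an entry. Non-unique reads are total minus unique reads.

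Total exon counts were tested with edgeR 4.0.16 (default low-count filter, TMM, quasi-likelihood, Benjamini-Hochberg at 0.05; R 4.3.3) on 4 homozygous against 4 heterozygous libraries, after a check on simulated counts. An interaction model with library as a block compared exon with intron reads. Levels are CPM, counts scaled to the TMM-adjusted exon library size, for every read class, n = 4. Guests are snoRNA and scaRNA rows inside a member on its strand, and 99.6% of gene IDs matched GENCODE vM21. Members get no p, and they and all lists were chosen with earlier results of these data known. Named genes were all members, up to 4 genes a list by p and the 5 most like the members' mean; cell markers are given as counts. DESeq2 1.42.0, other normalizations, filters and read classes, a GC correction (lowess, span 0.3), leaving out each library, and the 5 libraries with over 66% intron reads alone were alternatives.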

Additional observations from a re-analysis of the deposited data

Results flagged for a closer look

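Within groups of 4 libraries, 5 of 98 sets of member values held 1 library far from the other 3 by Dixon's test, and chance alone gives about 5% of groups. Heterozygous library 2 was high in 4 of them. Snhg1 had 1423 total exon CPM there against 969 to 1023 in the other 3 libraries, and 1236 CPM of non-unique exon reads against 851 to 866. Snhg5 had 15 non-unique exon CPM in that library against 6.72 to 8.09, and Snhg8 had 108 CPM of intron reads against 65.7 to 71. Heterozygous library 3 was low in Snhg20, at 72.8 total exon CPM against 97.9 to 102.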

How the results depend on the processing

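The 10 members' median log2 difference of -0.58 stayed within the spread between libraries (SD 0.22) under unique exon reads, RLE or upper quartile scaling, DESeq2 and both filters, and ranged from -0.73 to -0.43 with 1 library left out. It was -1.22 on whole-gene reads, -1.64 on intron reads (5 members tested), -0.94 with the GC correction, -0.86 on non-unique exon reads (7 members) and 0.18 on exon-exon reads (4 members). On exon-exon reads Snhg1 (0.21) and Gas5 (0.16) turned positive. Non-unique and exon-exon reads were added after seeing the data. The cause of these shifts was not tested.

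Genes changed between genotypes numbered 1603 and became 6 on whole-gene reads, 96 on intron reads, 329 with the GC correction (215 higher, 114 lower), 178 on non-unique exon and 778 on exon-exon reads, 746 in the 5 libraries with over 66% intron reads (also added after seeing the data), with a range of 734 to 2077 when 1 library was left out. DESeq2 and the unfiltered fit moved the median of all genes to 0.49 and 0.38 (log2). Of the genes of the 6 other lists 23 passed, 0 on whole-gene reads, 6 on intron reads, 11 with the GC correction, 8 on non-unique exon reads, and 12 to 26 with 1 library left out. The exon against intron count was 208 and ranged from 39 to 335 with 1 library left out. On intron reads Nop58 was at -1.05, Ncl at -1.58, Wdr43 at -0.20, Upf3b at -0.30, Pabpc1 at -0.17 and Cnbp at -0.63. Ncl was at -0.10 on non-unique exon reads, Cnbp at -0.12 on whole-gene reads and Gm11808 at 1.02 on unique exon reads. No paired analysis was made, because no label used here pairs a heterozygous with a homozygous library. Low counts limit Snhg6, Snhg8 and Snhg3, with under 100 reads a library in exons.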
